A study of Mus musculus with 6 samples.

Results

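Long intergenic noncoding RNAs (lincRNAs) expressed in p53-deleted mouse embryonic fibroblasts are described here, with and without a hairpin against ARF. Members were the genes that GENCODE M21 types as lincRNA and whose mean level over the 6 libraries was at least 1 CPM (counts per 1 M counts of the library). Genes on the X and Y chromosomes were left out. So were the imprinted genes Meg3, Rian, Mirg and H19, of which 3 were lincRNAs at this level. Other lincRNAs in regions that hold imprinted genes were kept. The set was thus selected on the level over all 6 libraries, not on the difference between the groups. This gave 163 of the 54752 genes in the table, out of 5624 typed as lincRNA, of which 1296 had a count in any library. A lincRNA at 1 CPM or more in only 1 group could enter only if that group was high, which held for 31 of the 163.

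The series title places the experiment in a study of how ARF acts on transcription through the PAF1 complex once p53 is lost. All 6 libraries came from mouse embryonic fibroblasts, which are cells grown out of dissected embryos, in a line described as lacking p53, and all titles carry the tag neo. The 3 shNT libraries received a lentiviral negative control hairpin and carry the genotype label WT, and the 3 shARF libraries received a lentiviral hairpin against ARF (p19ARF, a product of Cdkn2a) and carry the label ARF knockdown. The titles label each library a biol rep with a number. The number of embryos, infections or clones behind the line was not given in the sources used here. P-values cover only the spread among these libraries, which may still be technical where they share an infection or clone.

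Total counts were 40.3 to 47.0 M per library. Cdkn2a, the hairpin's target, was at 231, 218 and 223 CPM in shNT and at 95.6, 103 and 107 CPM in shARF (log2 fold change -1.14, adjusted p = 2.52e-06, edgeR). Fibroblast genes were abundant: the 10 listed summed to 22604 to 24362 CPM in shNT and to 25889 to 26113 CPM in shARF. Of these, 5 rose and 3 fell: the collagen gene Col1a1 rose from 7123 to 9360 CPM, whereas Pdgfra fell from 502 to 91.4 CPM. Of the 3 endothelial genes, Kdr rose from 0.282 to 3.13 CPM while Pecam1 stayed under 1 CPM. The 3 blood genes summed to 2.30 to 2.69 CPM in shNT and 1.21 to 1.54 CPM in shARF, of which Cd68 fell from 2.50 to 1.36 CPM. The 3 neural and glial genes summed to 25.9 to 28.6 CPM in shNT and 35.9 to 41.1 CPM in shARF, nearly all of it Tubb3, which rose (0.49). No count was found for Cdh5 (endothelium), Adgre1 (macrophages), Sox10 (glia) or the muscle genes Myod1 and Myog. Of the mesothelial list, Upk3b rose from 0.0137 to 12 CPM and Wt1 from 0.102 to 9.54 CPM, whereas Msln fell from 84.2 to 54.4 CPM; the list summed to 82.4 to 85.7 CPM in shNT and 74.2 to 77.2 CPM in shARF. Of the 5 epithelial genes, Krt18 fell from 12.7 to 0.150 CPM, Krt19 rose from 22.2 to 28.0 CPM and Cdh1 from 2.14 to 4.80 CPM, and Epcam and Krt8 did not pass the test; the list summed to 36.8 to 39.6 CPM in shNT and 32.7 to 34.0 CPM in shARF. The part of these marker changes in the lincRNA differences was not tested. In bulk RNA, fewer cells of a type and less RNA per cell cannot be told apart.

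LincRNAs are transcribed by RNA polymerase II from loci between protein-coding genes, and most are spliced and polyadenylated like mRNAs. Some act as RNA, by scaffolding nuclear bodies, by binding RNA-binding proteins or by titrating microRNAs. Others are precursors of snoRNAs or microRNAs, and for others the act of transcription beside a coding gene matters more than the product. Many are made in one lineage or at one body position, and most have no assigned function.

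Of the 163 members, 135 carried clone or model names and 28 a given name. Their exons summed to 168 to 20771 bases per gene, with a median of 2516 bases, and 29 had a single exon in every annotated transcript. Read counting can mix genes that overlap, and whether strand was used in counting was not given in the sources used here. The bodies of 74 members overlapped no other gene, 57 overlapped one on the other strand, and 34 overlapped one on the same strand. Small RNA genes, such as those of microRNAs and snoRNAs, were left out of the same-strand count. In the annotated transcripts, 12 members had a copy elsewhere in the genome, at 95% identity or more over at least 50% of the transcript.

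Members held 2.19 to 2.46% of all counts, and 1 gene held most of these. Gm26917 (GRCm38 chromosome 17, 39843013 to 39846341, plus strand) was at 15732, 15482 and 18221 CPM in shNT and at 18031, 18310 and 17800 CPM in shARF. The groups overlapped and it did not pass the test (log2 fold change 0.13, SE 0.06, adjusted p = 0.106, edgeR); without shNT replicate 3 it did (0.20, adjusted p = 0.000168). Its neighbour Gm42418 overlaps an annotated rRNA gene, CT010467.1, on the other strand, and was at 2600 ± 114 CPM in shNT against 2416 ± 21.2 CPM in shARF (SD, n = 3 each; log2 fold change -0.11, adjusted p = 0.0258, edgeR). That call was lost when any shARF library was left out (adjusted p of 0.0553 to 0.0781, edgeR) and with the replicate number as a block (0.0511). The libraries were made with a kit that removes ribosomal RNA, and the part of that removal in the counts of these adjacent genes was not tested. Without these 2 genes, members held 0.320 to 0.345% of counts in shNT and 0.273 to 0.283% in shARF, so the groups did not overlap. These shares are of unscaled counts and include Malat1, whose mean was 1598 CPM of unscaled counts in shNT and 1267 in shARF. They thus weigh the most abundant members most.

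Per kb of exon, the next most abundant members were Malat1 at 205 CPM per kb, Gm10076 at 160, Bc1 at 96.2, 2900097C17Rik at 63.4, Gm7292 at 37.0 and Gm42743 at 33.9 CPM per kb, as means over the 6 libraries. Gm10076 matched the ribosomal protein mRNA Rpl41 over 99.7% of its transcript at 99.3% identity, so its reads may belong to that gene. Gm10076 fell from 69.7 ± 4.29 to 53 ± 1.88 CPM (log2 change -0.39, adjusted p = 0.000833), and Rpl41 also fell (-0.20, adjusted p = 0.00478, edgeR). Bc1, a short RNA made by RNA polymerase III and known from neurons, rose from 13.8 ± 0.884 to 18.5 ± 1.56 CPM (0.42, adjusted p = 0.00404). Up to 60.1% of its transcript matched stretches of Elp6, Cnot3 or Slc52a2 transcripts. Gm42743 fell from 55.7 ± 3.06 to 46.9 ± 1.01 CPM (-0.25, adjusted p = 0.0048); it overlaps the histone gene Hist2h2bb on the same strand, which fell by 0.29 on the log2 scale (adjusted p = 0.00206, edgeR).

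2900097C17Rik is Norad, a cytoplasmic RNA known for binding Pumilio proteins, which repress mRNAs through the motif TGTANATA. Its annotated transcript of 4915 bases held 11 such motifs on its sense strand, the most of any member. Of the 163 members, 46 held at least 1 and only Norad and Gm7292 held 5 or more. A match is a description of the letters, not a measured binding site. The sites shown are the first, the 2 that lie next to each other and the last, with 6 bases on either side and the motif in capitals.
Norad bases 645 to 664: gtcctgTGTATATAatatga
Norad bases 2436 to 2455: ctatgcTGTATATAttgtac
Norad bases 2445 to 2464: atatatTGTACATActggac
Norad bases 3520 to 3539: agaaagTGTACATAacggat
Norad was at 319, 326 and 330 CPM in shNT and at 297, 303 and 296 CPM in shARF. The groups did not overlap and the fall was small (log2 fold change -0.12, SE 0.02, adjusted p = 0.00277, edgeR). Gm7292, a single-exon gene on chromosome 6 (117716342 to 117718868), aligned to bases 19 to 2553 of Norad at 99.2% identity and held 9 of the motifs. It was at 96.0 ± 1.57 CPM in shNT against 91.2 ± 2.58 CPM in shARF (-0.07, adjusted p = 0.0994; called lower with library sizes alone, -0.16, adjusted p = 0.00423, and with upper quartile factors, -0.10, adjusted p = 0.0362). Reads from the shared part can be assigned to either gene, so the 2 levels are not independent.

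1700020I14Rik is Cyrano, an RNA known for a deeply conserved site that directs the destruction of miR-7. It was lower in shARF in every library: 126, 128 and 120 CPM in shNT against 87.9, 87.4 and 90.6 CPM. The groups were well apart (log2 fold change -0.49, SE 0.03, adjusted p = 3.28e-05, edgeR). Its transcript held 2 matches to bases 2 to 8 of miR-7a-5p, counted from the 5′ end. The second lies in a stretch that differs from the full complement of the 23-base microRNA by 3 edits. The microRNA and the site are shown 5′ to 3′, with the seed and its match in capitals.
miR-7a-5p (RefSeq, GRCm38.p6): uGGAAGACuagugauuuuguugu
Cyrano bases 2934 to 2961: aacaacaaaatcaccaatGTCTTCCatt
Oip5, the coding gene 2010 bases away, was at 17.4 ± 0.624 CPM in shNT against 15.4 ± 1.35 CPM in shARF (-0.18, adjusted p = 0.0847, edgeR). MicroRNA levels were not measured.

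Across the 163 members, 41 rose in shARF (25.2%, beside 28.8% of all genes tested), 49 fell (30.1%, beside 27.7%) and 73 did not pass the test (edgeR quasi-likelihood test, Benjamini-Hochberg adjusted p under 0.05 over 17128 genes). That is 55.2% called, beside 56.4% of all genes tested and 63.4% of those averaging 1 CPM or more; of protein-coding genes at that level, 66.6% were called. In 101 members the libraries of the groups did not overlap (62%, beside 64.6% of all genes tested), the 90 called included. The median log2 fold change was -0.09, beside -0.01 over all genes tested; it was -0.18 when libraries were scaled by their sizes alone, and 0.04 over the 74 members that overlap no other gene. Members over 10 CPM, between 2 and 10 CPM and between 1 and 2 CPM had medians of -0.11, -0.04 and -0.10. All genes tested at these levels had 0.03, -0.10 and -0.09. The median size of change was 0.49 on the log2 scale, beside 0.34 over all genes tested and 0.30 over genes averaging 1 CPM or more. It depended on level: members had 0.37 over 10 CPM, 0.56 between 2 and 10 CPM and 0.49 between 1 and 2 CPM. All genes tested at these levels had 0.26, 0.46 and 0.49. Changes of at least 2-fold were called for 14 members that rose and 19 that fell, 20.2% of members beside 14.4% of all genes tested, 12.2% of those averaging 1 CPM or more and 12.9% of protein-coding genes at that level. Among the 132 members at 1 CPM or more in both groups, 32 rose and 36 fell. Their median size of change was 0.36, beside 0.29 over all genes tested at that level in both groups, and 17 (12.9%) changed at least 2-fold, beside 9.23%. The 31 that entered through 1 group had a median size of change of 1.09, which their way of entry favours.

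**Figure D1:**
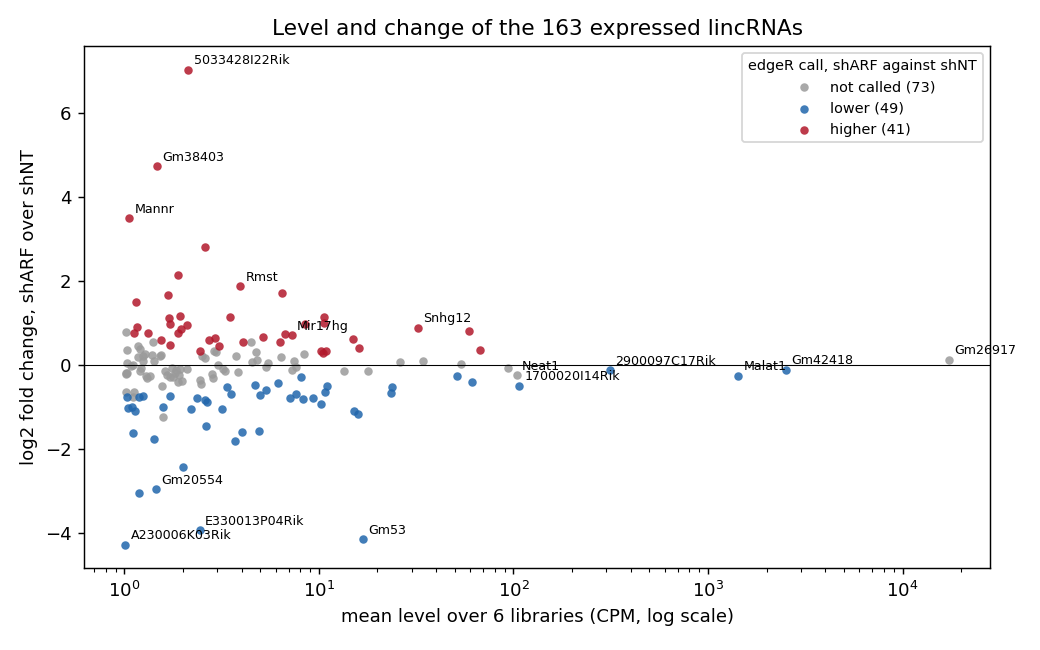
Each point is 1 of the 163 lincRNAs: the x axis is its mean over 6 libraries in CPM on a log scale and the y axis its log2 fold change in shARF over shNT, coloured by the edgeR call. Points above 100 CPM lie between -0.49 and 0.13, and the changes beyond 2 on the log2 scale belong to lincRNAs under 40 CPM.

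By level, 75.0% of the 32 members over 10 CPM, 60.3% of the 63 between 2 and 10 CPM and 41.2% of the 68 between 1 and 2 CPM were called, beside 66.8%, 59.2% and 45.3% of all genes tested at these levels. Named lincRNAs were called in 18 of 28 cases (64.3%), 11 higher and 7 lower, and clone or model names in 72 of 135 (53.3%), 30 higher and 42 lower. Of all genes tested, 56.4% were called, 28.8% higher and 27.7% lower.

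Of the nuclear body RNAs, Malat1 fell and Neat1 did not pass the test. Malat1, an abundant RNA of nuclear speckles, was at 1656, 1508 and 1483 CPM in shNT and at 1273, 1344 and 1307 CPM in shARF. The groups did not overlap (log2 fold change -0.24, SE 0.04, adjusted p = 0.00311, edgeR). Neat1, the scaffold of paraspeckles, lies near Malat1 on chromosome 19 and was at 127, 118 and 91.7 CPM in shNT and at 88.7, 107 and 90.4 CPM in shARF. Its groups overlapped (-0.24, SE 0.13, adjusted p = 0.17, edgeR). Without shNT replicate 3, the low control library, it was called lower (-0.37, adjusted p = 0.0186).

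Host genes of snoRNAs carry these small guides of ribosomal RNA modification in their introns, and their spliced RNAs are often short-lived. Of 21 hosts listed, 18 were in the table, 17 were tested and 6 were members. Among the 17, 9 rose, 3 fell and 5 did not pass the test, with a median log2 fold change of 0.31. Over all genes tested, 28.8% rose and 27.7% fell, with a median of -0.01. By the annotation, 10 members contain a snoRNA gene, of which 3 rose, 4 fell and 3 did not pass. That is 70% called, beside 56.4% of all genes tested. Among the 6 listed members, Snhg12, which holds 5 snoRNAs, was at 23.2, 23.2 and 21 CPM in shNT and at 47.2, 38.3 and 40.0 CPM in shARF. Every shARF library lay above every shNT library (0.90, SE 0.09, adjusted p = 0.000159, edgeR). Snhg6 rose from 9.09 ± 0.401 to 11.4 ± 1.03 CPM (0.33, adjusted p = 0.013). Snhg10 rose from 1.22 ± 0.185 to 1.87 ± 0.194 CPM (0.61, adjusted p = 0.0169), a call that was lost with DESeq2 (adjusted p = 0.0615) and without shNT replicate 2, shARF replicate 1 or shARF replicate 3 (0.0548 to 0.0559). Snhg18 went the other way, at 28.4, 27.4 and 28.1 CPM in shNT against 19.7, 18.3 and 20.1 CPM in shARF (-0.53, SE 0.05, adjusted p = 0.000152). Snhg20 (5.35 ± 0.659 and 5.59 ± 1.85 CPM) and Epb41l4aos (7.72 ± 0.464 and 7.54 ± 0.537 CPM) did not pass the test. Hosts that GENCODE types otherwise included Snhg5, which rose from 18.6 ± 0.574 to 38.2 ± 2.51 CPM (1.04, adjusted p = 1.21e-05), and Gas5, Snhg1 and Zfas1, which rose by 0.31, 0.41 and 0.44 on the log2 scale. Snhg14, in the Snrpn region, fell from 1.12 ± 0.206 to 0.113 ± 0.0811 CPM (-3.28, adjusted p = 0.000966, edgeR).

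An annotated microRNA gene lies inside 10 members, 3 of which also contain a snoRNA gene. Of the 10, 5 rose, none fell and 5 did not pass the test, so 50% were called, beside 56.4% of all genes tested (28.8% higher, 27.7% lower). The largest cluster is in Mir17hg (chromosome 14, 115042879 to 115046727, plus strand), the precursor of the miR-17-92 family, which is known as a MYC target that promotes proliferation. Its main arms fall into 4 seed groups. They are shown from RefSeq (GRCm38.p6), with bases 2 to 8, the seed, in capitals.
miR-17-5p: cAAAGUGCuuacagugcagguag
miR-20a-5p: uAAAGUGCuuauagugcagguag
miR-18a-5p: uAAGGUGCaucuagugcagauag
miR-19a-3p: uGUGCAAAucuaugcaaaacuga
miR-19b-3p: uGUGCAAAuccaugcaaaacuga
miR-92a-3p: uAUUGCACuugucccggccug
Mir17hg was at 5.39, 5.44 and 5.59 CPM in shNT and at 8.90, 9.53 and 8.57 CPM in shARF. The groups were far apart for their spread (log2 fold change 0.72, SE 0.07, adjusted p = 0.000141, edgeR). AL805899.1, which contains Mir31, rose from 9.58 ± 0.291 to 12.2 ± 0.899 CPM (0.35, adjusted p = 0.00525). It was named after its values were seen, and it lies on chromosome 4, the chromosome of Cdkn2a. 6720427I07Rik contains 3 let-7 genes with 1 seed and did not pass the test, at 26.0, 23.8 and 26.0 CPM in shNT against 24.3, 28.4 and 27.4 CPM in shARF (0.08, SE 0.07, adjusted p = 0.383, edgeR). Its microRNAs and miR-31 are shown with their seeds in capitals.
let-7a-5p: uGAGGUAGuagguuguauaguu
let-7d-5p: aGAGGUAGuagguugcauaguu
let-7f-5p: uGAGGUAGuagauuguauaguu
miR-31-5p: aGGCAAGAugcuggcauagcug
The let-7 microRNAs are known as brakes on proliferation and on growth genes. Carmn, known as the host of miR-143 and miR-145, was at 13.8, 12.2 and 12.4 CPM in shNT and at 8.57, 8.33 and 10.4 CPM in shARF (-0.49, SE 0.10, adjusted p = 0.00573, edgeR). Of the 17 microRNA hosts listed, 6 were tested: 2 rose, 1 fell and 3 did not pass, beside 28.8% higher and 27.7% lower of all genes tested. Only the host transcripts were read, not the mature microRNAs.

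LincRNAs linked to p53 or MYC moved in different directions. Trp53cor1 (lincRNA-p21), known as a p53-induced RNA upstream of Cdkn1a, was at 1.11, 1.03 and 1.43 CPM in shNT and at 2.72, 2.76 and 2.57 CPM in shARF. All shARF libraries lay above all shNT libraries in these p53-deleted cells (log2 fold change 1.18, SE 0.15, adjusted p = 0.000603, edgeR). Cdkn1a, which encodes the cell cycle inhibitor p21 and lies 11797 bases away, rose from 8.01 ± 1.02 to 18.8 ± 0.906 CPM (1.23, adjusted p = 5.9e-05). Lncpint, also known as a p53 target, fell from 8.82 ± 0.257 to 7.33 ± 0.422 CPM (-0.27, adjusted p = 0.0147); the call was lost with DESeq2 (adjusted p = 0.0551) and without shARF replicate 3 (0.0505). Pvt1, beside Myc, was at 9.71, 17.1 and 15.5 CPM in shNT and at 12.2, 13.2 and 13.3 CPM in shARF, within the spread of the controls (-0.13, SE 0.20, adjusted p = 0.608). Without shNT replicate 1, the low one, Pvt1 was called lower (-0.34, adjusted p = 0.0126). Myc itself rose from 62.1 ± 2.37 to 96.8 ± 1.58 CPM (0.64, adjusted p = 1.37e-05, edgeR). Tug1, typed as antisense, fell from 146 ± 1.18 to 85.2 ± 8.73 CPM (-0.78, adjusted p = 0.000111, edgeR).

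Among the 8 tested RNAs linked to chromatin and cell state, only Rmst, known as a partner of SOX2 in neural differentiation, was called higher. It was at 1.67, 1.87 and 1.51 CPM in shNT and at 6.40, 6.52 and 5.73 CPM in shARF. The groups were apart by more than their spread (log2 fold change 1.88, SE 0.11, adjusted p = 1.44e-05, edgeR). Dubr, known from muscle precursor cells, fell from 6.44 ± 0.895 to 4.29 ± 0.642 CPM (-0.59, adjusted p = 0.012). Lockd, downstream of Cdkn1b (5.44 ± 0.734 and 5.31 ± 0.699 CPM, adjusted p = 0.846), and Lncenc1, known from naive embryonic stem cells (1.26 ± 0.103 and 1.14 ± 0.117 CPM, adjusted p = 0.47, edgeR), did not pass. Of the 8 genes of this list that were tested, 1 rose, 4 fell and 3 did not pass, beside 28.8% higher and 27.7% lower of all genes tested. The imprinted gene Peg13 fell from 24.3 ± 1.22 to 8.20 ± 0.883 CPM (-1.56, adjusted p = 1.05e-05), and Crnde from 2.83 ± 0.190 to 1.15 ± 0.184 CPM (-1.30, adjusted p = 0.000359, edgeR).

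**Figure D2:**
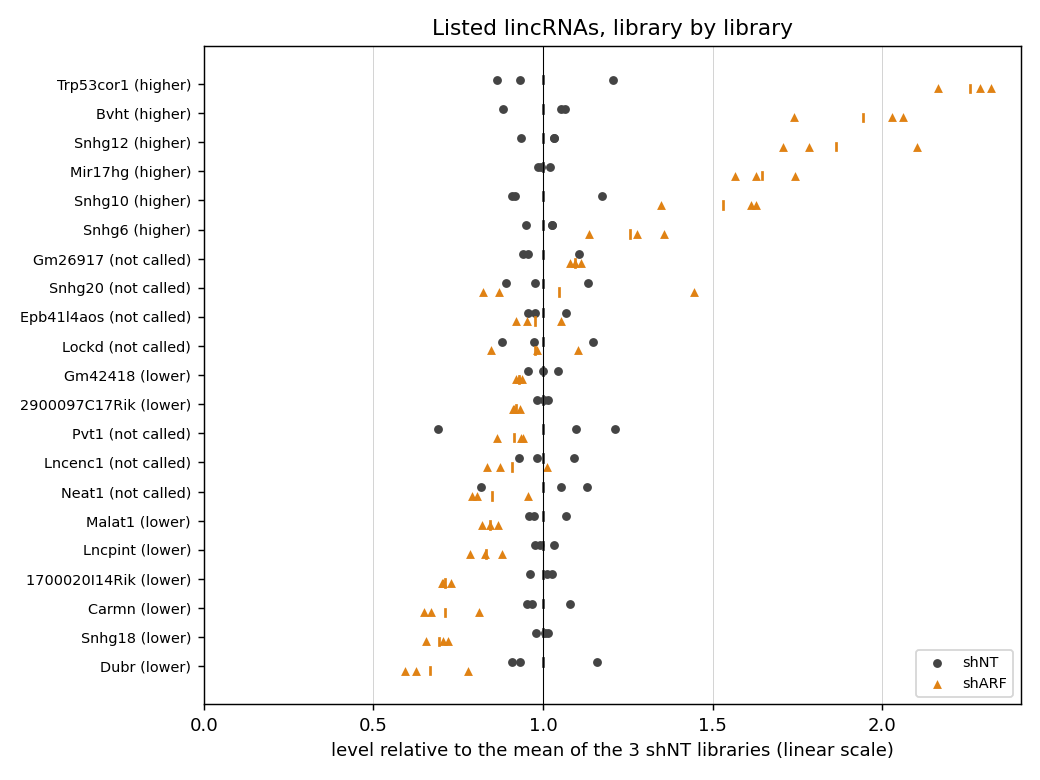
Each row is 1 of 21 listed lincRNAs (Rmst left out for scale), with its level in each library divided by the mean of the 3 shNT libraries on a linear axis; short bars are group means and the edgeR call is in brackets. From Dubr at the bottom to Trp53cor1 at the top, the shARF mean runs from below the shNT mean to 2.26 times it.

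A lincRNA of a Hox cluster was among the largest falls. Gm53 is a 3-exon lincRNA (chromosome 11, 96251105 to 96264868, plus strand) of the HoxB cluster, which encodes transcription factors of body position, and it was at 30.1, 31.2 and 34.4 CPM in shNT and at 1.72, 1.85 and 1.86 CPM in shARF. That is 17.6-fold lower, with no overlap (log2 fold change -4.14, SE 0.08, adjusted p = 2.14e-07, edgeR). Hoxb9, 6589 bases away on the same strand, fell from 103 ± 3.28 to 6.41 ± 0.563 CPM (-4.00, adjusted p = 1.8e-07), and Hoxb13, on its other side, had no count in any library. The antisense RNAs Hoxb5os and Hoxb3os of the same cluster fell too (-4.20 and -2.52). In the HoxA cluster, Hoxa11os rose from 5.95 ± 0.600 to 13.8 ± 0.756 CPM (1.21, adjusted p = 3.87e-05, edgeR), whereas the lincRNA Hottip fell from 0.771 ± 0.175 to 0.233 ± 0.145 CPM, under the level of a member (-1.71, adjusted p = 0.0202, edgeR). Of the 14 positional and mesodermal RNAs listed, 9 were tested: 3 rose, 3 fell and 3 did not pass, beside 28.8% higher and 27.7% lower of all genes tested. The member of that list, Bvht (Braveheart), known from cardiac lineage commitment, rose from 1.43 ± 0.146 to 2.78 ± 0.254 CPM (0.96, adjusted p = 0.000893, edgeR).

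5033428I22Rik (chromosome 8, 57332118 to 57354580, plus strand) showed the largest rise of any member. Its body overlaps a gene on the other strand. It had 4 counts in shNT replicate 1 and none in the other shNT libraries, and was at 3.95, 4.13 and 4.61 CPM in shARF (log2 fold change 7.04, 95% interval 5.80 to 8.27, adjusted p = 3.73e-05, edgeR). It lies 7485 bases downstream of Hand2, a transcription factor gene of heart and limb mesoderm, which was at 0, 0.144 and 0.340 CPM in shNT and at 10.9, 11.6 and 11.2 CPM in shARF (6.15, adjusted p = 5.44e-05). Hand2os1, which overlaps Hand2 on the other strand, had no count in shNT and was at 0.580, 0.639 and 0.246 CPM in shARF. All 3 transcripts of this locus were thus at or near 0 in shNT and present in each shARF library.

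Most of the 12 largest rises were in RNAs with clone or model names. Gm38403 was at 0.0869, 0.0411 and 0.194 CPM in shNT and at 2.54, 3.31 and 2.64 CPM in shARF (log2 fold change 4.73, SE 0.37, adjusted p = 5.15e-05, edgeR). Mannr (chromosome 3, 29891014 to 29924191, plus strand) was at 0, 0.287 and 0.219 CPM in shNT and at 1.70, 1.94 and 2.21 CPM in shARF (3.51, SE 0.61, adjusted p = 0.00241). Their nearest coding genes did not rise with them: Dyrk2, beside Gm38403, fell from 75.6 to 67.3 CPM (-0.17, adjusted p = 0.00689), and Mecom, beside Mannr, was at 75.0 ± 5.46 and 77.1 ± 4.01 CPM (0.04, adjusted p = 0.629, edgeR). The RefSeq start window of Mannr (250 bases before to 50 after the start; chr3:29890767-29891066, plus strand) is shown because the gene went from near 0 to clearly read; capitals mark the letters TGANTCA, the AP-1 site, searched on both strands.
Mannr: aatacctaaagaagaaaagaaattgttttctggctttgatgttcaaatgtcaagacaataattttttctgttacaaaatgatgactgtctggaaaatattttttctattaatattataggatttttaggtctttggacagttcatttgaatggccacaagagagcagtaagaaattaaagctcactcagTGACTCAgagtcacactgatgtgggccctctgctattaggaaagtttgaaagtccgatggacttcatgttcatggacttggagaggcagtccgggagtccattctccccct
This motif is in 7.81% of all 32851 such windows in the RefSeq table, and in 8.33% of the 96 windows of the 88 members that have one. The window held no TATA box, CCAAT box or GC box.

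The other large rises were of 2-fold to 7-fold. 5430403N17Rik rose from 0.643 ± 0.156 to 4.53 ± 0.612 CPM (log2 change 2.81, adjusted p = 3.23e-05) and 1700001L05Rik from 0.690 ± 0.157 to 3.08 ± 1.13 CPM (2.15, adjusted p = 0.00129, edgeR). AC166110.4 rose from 2.99 ± 0.250 to 9.94 ± 0.275 CPM (1.73, adjusted p = 5.25e-06), but its whole transcript matched Sod2 at 98.6% and Rps6ka2 at 98.0% identity; Sod2 fell (-0.50, adjusted p = 0.000224) and Rps6ka2 was not called (0.07, adjusted p = 0.315). Gm49083 rose from 0.596 ± 0.0652 to 1.70 ± 0.143 CPM (1.51, adjusted p = 0.000239), and its whole transcript matched 3 genes: AC132253.9 at 98.2% identity, which was not tested, Gm47547 at 97.7%, which rose (3.11, adjusted p = 3.38e-07), and Gm8113 at 96.9%, which rose (6.83, adjusted p = 0.00161, edgeR). Which copy these reads came from could not be told from the counts. Gm26651 (0.791 ± 0.276 to 2.55 ± 0.299 CPM), 1700048O20Rik (2.17 ± 0.231 to 4.82 ± 0.509 CPM) and 3110039M20Rik (6.65 ± 0.407 to 14.7 ± 0.382 CPM) rose by 1.68, 1.14 and 1.14 on the log2 scale. Of these, 1700048O20Rik overlaps another gene on the same strand, whose reads may be mixed with its own.

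The largest falls included 3 members in regions that hold imprinted genes. A230006K03Rik (chromosome 7, 61127996 to 61311721, minus strand) was at 2.13, 1.97 and 1.68 CPM in shNT and at 0.0223, 0.114 and 0.157 CPM in shARF (log2 fold change -4.27, SE 0.40, adjusted p = 0.000118, edgeR). It overlaps another gene on the same strand, whose reads may be mixed with its own. Its nearest coding gene, the paternally expressed splicing gene Snrpn, is 987777 bases away on the same strand and fell from 6.50 ± 0.531 to 1.33 ± 0.350 CPM (-2.29, adjusted p = 5.44e-05). On chromosome 12, Gm26945 fell from 3.36 ± 0.312 to 0.622 ± 0.104 CPM (-2.43) and B830012L14Rik from 2.12 ± 0.265 to 0.256 ± 0.0973 CPM (-3.04, adjusted p = 8.43e-05). Their nearest coding gene, the paternally expressed Rtl1, was at 1.53 ± 0.0524 CPM in shNT against 0.0893 ± 0.155 CPM in shARF (-4.05, adjusted p = 0.0048), and Dlk1 in the same domain fell from 135 ± 6.60 to 7.42 ± 0.188 CPM (-4.18, adjusted p = 1.2e-07, edgeR).

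Further large falls lay elsewhere in the genome. E330013P04Rik was at 4.78, 4.54 and 4.42 CPM in shNT and at 0.268, 0.0912 and 0.537 CPM in shARF (log2 fold change -3.92, SE 0.40, adjusted p = 0.00019, edgeR), with Fam204a beside it at 25.2 and 27.2 CPM (0.11, adjusted p = 0.121). 2310001H17Rik was at 6.17, 5.40 and 5.66 CPM in shNT and at 1.41, 0.867 and 2.66 CPM in shARF (-1.80, adjusted p = 0.00421), and its neighbour Clec2d fell from 29.8 ± 2.16 to 16.1 ± 0.535 CPM (-0.89). 3300005D01Rik fell from 7.35 ± 0.305 to 2.49 ± 0.170 CPM (-1.56, adjusted p = 9.96e-06), beside -0.39 for its neighbour Snx9, and Gm20300 from 6.02 ± 0.192 to 1.99 ± 0.232 CPM (-1.59, adjusted p = 2.38e-05). 9430037G07Rik (-1.75) and 9330104G04Rik (-1.62) ended under 1 CPM in every shARF library. The first of these matched 9330159M07Rik over 49.9% of its transcript at 98.7% identity, just under the 50% set for a copy. Some of its reads may belong to that gene, which was not tested. Ptgs2os2 (lincRNA-Cox2), known from inflammatory gene control in macrophages, fell from 3.83 ± 0.592 to 1.41 ± 0.107 CPM (-1.44, adjusted p = 0.00021), whereas Ptgs2, 50816 bases away, rose from 61.4 ± 4.01 to 82.3 ± 3.82 CPM (0.42, adjusted p = 0.000855, edgeR).

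**Figure D3:**
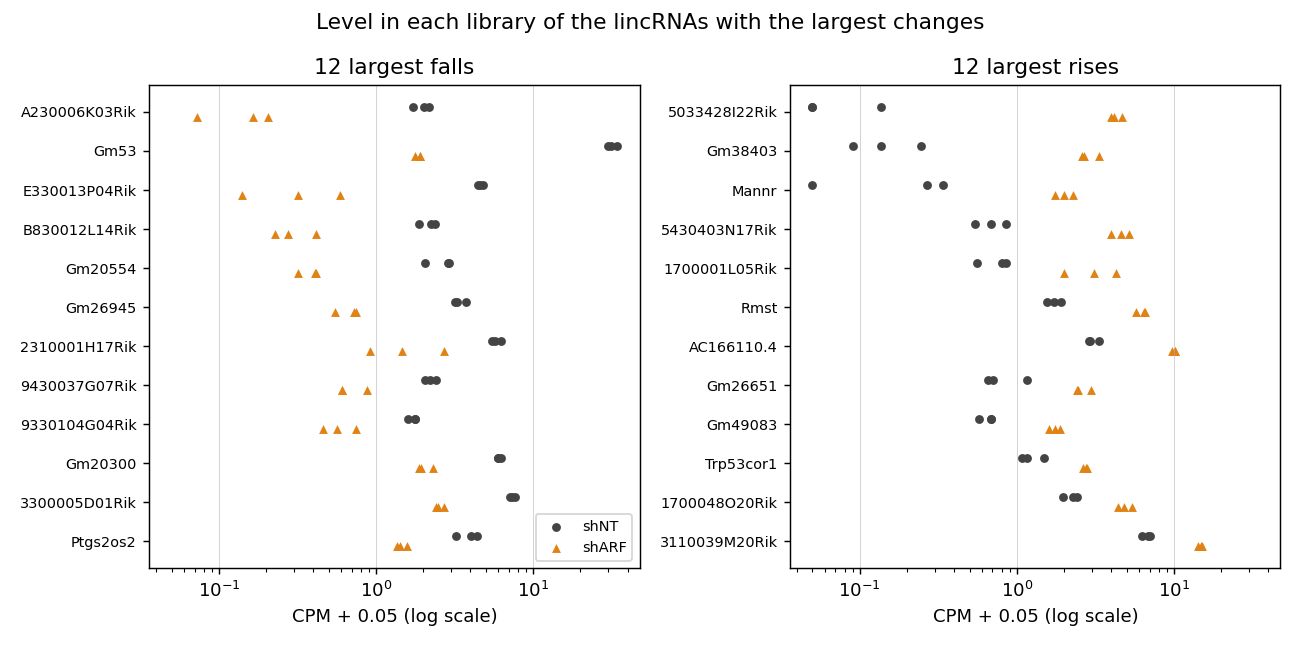
Each row is 1 lincRNA and each mark 1 library (circles shNT, triangles shARF), on a log axis of CPM + 0.05; the 12 largest falls are on the left and the 12 largest rises on the right. Rows were chosen among called lincRNAs whose groups do not overlap, so the marks of the groups are apart in every row by choice. The leftmost marks, at 0.05, are libraries with no count.

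The nearest protein-coding gene of each member was set beside it, since lincRNAs often share regulatory DNA with a neighbour. The neighbour was tested for 133 members, with 124 distinct neighbours and a median gap of 3249 bases. Both were called for 41 pairs, 32 in the same direction and 9 in opposite directions. The member alone was called in 27 pairs, the neighbour alone in 44 and neither in 21. Of all genes tested, 56.4% were called, and of protein-coding genes averaging 1 CPM or more, 66.6%. Across pairs, the log2 fold changes had Pearson's r of 0.58 and Spearman's rho of 0.35; these points share libraries and chromosome positions. The correlation rests largely on the 6 pairs in which both genes changed at least 4-fold (Gm53, 5033428I22Rik, Gm26945, Gm20554, B830012L14Rik and A230006K03Rik with their neighbours): over the other 127 pairs r was 0.12 and rho 0.25. Of those 6 members, all but Gm53 averaged under 1 CPM in 1 group and entered through the other, which favours large changes. Among the 104 pairs whose member changed by under 2-fold, r was 0.07 and rho 0.22. With no filter on low counts, which adds neighbours with few counts to give 147 pairs, r was 0.30 (rho 0.31), and with DESeq2 it was 0.17 (rho 0.31).

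**Figure D4:**
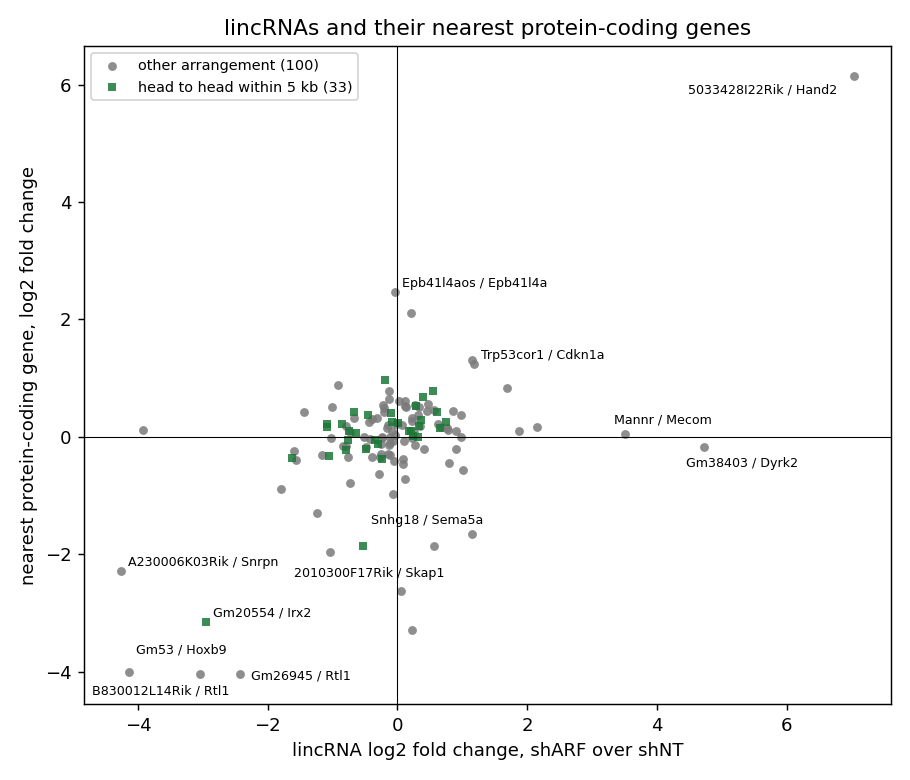
Each point is a lincRNA and its nearest protein-coding gene, with the log2 fold change in shARF over shNT of the lincRNA on the x axis and of the gene on the y axis; squares are the 33 pairs that start head to head within 5 kb. A few pairs at the lower left and the upper right changed together, while Mannr and Gm38403 lie along the x axis and Epb41l4aos along the y axis.

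Of the 28 members called at 2-fold or more with a tested neighbour, 14 had a neighbour called in the same direction, 4 one in the opposite direction and 10 one that was not called. Among protein-coding genes averaging 1 CPM or more, 66.6% were called in either direction, and 12.9% were called at 2-fold or more. In 9 of the 14 the neighbour also changed at least 2-fold; besides those already described, these were 3110039M20Rik with Gm43517 and 2010300F17Rik with Skap1.

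A divergent start shared with a coding gene is a common lincRNA arrangement. It was found within 5 kb for 36 members, 28 of them within 500 bases: 6 rose, 13 fell and 17 did not pass the test. That is 52.8% called, beside 56.4% of all genes tested; of the 127 other members, 35 rose and 36 fell. For the 33 whose head-to-head partner was the nearest tested gene, r was 0.67 and rho 0.52. This set includes Gm20554 with Irx2, a pair in which both genes changed at least 4-fold, and no value was computed without that pair. Gm20554 starts 256 bases from Irx2, a homeobox transcription factor gene, on the opposite strand. It was at 2.87, 2.83 and 1.99 CPM in shNT and at 0.357, 0.365 and 0.268 CPM in shARF (log2 fold change -2.95, SE 0.23, adjusted p = 4.61e-05), while Irx2 was at 40.2, 39.2 and 38.9 CPM in shNT and at 3.93, 4.33 and 4.97 CPM in shARF (-3.16, adjusted p = 5.77e-07, edgeR). By their means, Gm20554 was 7.77-fold lower and Irx2 8.94-fold lower, and neither pair of groups overlapped. The RefSeq window of Gm20554 (chr13:72628515-72628814, minus strand, GRCm38.p6) is shown because it shares 245 bases with that of Irx2 on the other strand; capitals mark the CCAAT box (CCAAT) and the GC box of GGGCGG, searched on both strands.
Gm20554: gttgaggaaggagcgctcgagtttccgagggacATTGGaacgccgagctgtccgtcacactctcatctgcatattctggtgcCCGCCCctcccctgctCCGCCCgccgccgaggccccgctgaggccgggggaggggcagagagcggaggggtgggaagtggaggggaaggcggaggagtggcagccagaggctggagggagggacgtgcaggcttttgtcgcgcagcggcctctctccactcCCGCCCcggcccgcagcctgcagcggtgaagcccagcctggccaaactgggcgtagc
It held 1 CCAAT box, 3 GC boxes and no TATA box (TATAAA), and 69.7% G and C, against a median of 52.7% over all windows. A CCAAT box is in 37.4% and a GC box in 35.7% of all windows. In another divergent pair, Sema5a, 148 bases from Snhg18, fell from 20.2 ± 0.288 to 5.57 ± 0.497 CPM (-1.86, adjusted p = 2.6e-06), beside -0.53 for Snhg18. In a convergent pair, Epb41l4a, which ends 341 bases from the end of Epb41l4aos, rose from 6.69 ± 0.657 to 36.8 ± 1.10 CPM (2.46, adjusted p = 9.52e-07, edgeR), while the lincRNA was not called.

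Members lay on all 19 autosomes, and some chromosomes leaned one way for all genes. On chromosome 4, 6 of 9 members rose and 1 fell, with a median log2 fold change of 0.47 beside 0.19 for all genes tested there. On chromosome 8, 5 of 13 rose and 6 fell, with a median of -0.69 beside -0.27 for all genes, and on chromosome 12, 4 of 10 rose and 2 fell (0.33 beside 0.27). Members did not always lean with their chromosome: on chromosome 3, 5 of 8 rose and 1 fell (0.32 beside -0.03). On chromosome 14, 2 of 6 rose and 1 fell (0.15 beside 0.20). Over all chromosomes, 28.8% of genes tested rose and 27.7% fell, and the shares for single chromosomes are not given here. The part of these regional differences in single members was not tested. At the level that defined the members, the 3 just above were 2810414N06Rik, 1110006O24Rik and 4833412C05Rik, at means of 1.02, 1.02 and 1.01 CPM of unscaled counts. The 3 lincRNAs just below were 2010015M23Rik, G930009F23Rik and 1700096K18Rik, at 0.999, 0.987 and 0.987 CPM. Abundant members that moved least, besides Gm7292 and 6720427I07Rik, included 1810058I24Rik at 53.1 ± 2.36 CPM in shNT against 54.6 ± 1.43 CPM in shARF (log2 fold change 0.04, 95% interval -0.07 to 0.15, adjusted p = 0.509, edgeR).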

How the data were processed

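RNA-seq of 6 libraries (3 shNT, 3 shARF) was used, with groups and replicate numbers from the titles. The authors deposited a table of whole-number counts per gene; 6 further columns match no sample of the series and were not used. Per the submitters' processing notes, the build was GRCm38 and StringTie 1.3.2, HISAT2 2.1.0, Trim Galore 0.4.1 and DESeq2 1.34.0 were among the tools, without a stated role. The counting tool, its strand setting and any removal of duplicates were details not given in the sources used here. Of 54752 gene IDs, 54723 matched GENCODE M21 (GRCm38), and 29 unmatched rows held 0.0029% of counts. Members and lists were chosen with earlier results of these data known.

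The test was edgeR 4.0.16 in R 4.3.3 (quasi-likelihood, two-sided, TMM, filterByExpr with a minimum count of 10 and total of 15, group as the only term, Benjamini-Hochberg over 17128 genes, threshold 0.05). All 163 members passed that filter. CPM are TMM-scaled unless called unscaled; means carry the SD over 3 libraries, and the SE of a log2 fold change comes from the fit. At this depth 1 CPM is at least 40.3 counts. Pairs of libraries within a group differed beyond sampling noise (chi-square of 13.4 to 18.2 per gene; 134 to 142 for pairs from different groups), so each counted as 1 sample.

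Genes were named by rule: listed members, the 12 largest called rises and falls without overlap, the 8 most abundant per kb, the 3 on either side of the level, and the 3 least changed of the 20 most abundant, with their nearest protein-coding genes. Copies were found with blastn 2.17.0. Promoter and microRNA sequences came from RefSeq (GRCm38.p6): 117 members matched a RefSeq name and 88 had a promoter window. Transcripts came from GENCODE M21. Alternatives were DESeq2 1.42.0, limma-voom (limma 3.58.1), other scalings and filters, a replicate block, structural RNA genes left out, a threshold of 0.01, other levels for members, and each library left out. Leaving out Gm26917 and Gm42418, and all alternatives and subsets for the neighbour correlation, were chosen after seeing the data. The fits were tested on simulated counts.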

Additional observations from a re-analysis of the deposited data

How the results depend on the processing

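Over the other fits, 84 to 92 members were called, and no named member changed direction while called. These fits called 8783 to 9897 of all genes, out of 13908 to 27864 tested. At a threshold of 0.01, 73 members were called (34 higher, 39 lower), and the share of all genes at that threshold is not given here. Replicate numbers did not pair the libraries (correlation of deviations -0.09 to 0.01 for equal numbers); with the replicate block, 85 members were called, 84 of them also without it. Leaving out 1 library gave 84 to 92 members called, 38 to 42 of them higher and 46 to 50 lower, 31 to 35 with at least 2-fold, 38 to 42 named members, a median log2 fold change of -0.11 to -0.06 and a neighbour correlation of 0.53 to 0.61. With library sizes alone the median was -0.18. The neighbour correlation was 0.17 with DESeq2 and 0.30 without a filter; without the 6 pairs in which both genes changed at least 4-fold it was 0.12, and over the pairs whose member changed under 2-fold 0.073. The first 2 of these include neighbours with few counts. At a mean of at least 0.5 CPM, 116 of 238 lincRNAs (48.7%) were called, 53 with at least 2-fold. At 2 CPM, 62 of 95 (65.3%) were called, 26 of them higher and 18 with at least 2-fold. At 1 CPM in each group, 68 of 132 (51.5%) were called, 17 with at least 2-fold, beside 62.5% of all genes tested at that level in both groups. Of all genes tested at any level, 56.4% were called. Of the 74 that overlap no other gene, 44 were called (19 higher, 25 lower, 19 with at least 2-fold), with a median of 0.044. These last counts differ because fewer or more lincRNAs enter. Of the members between 1 and 2 CPM, where counts are fewest, 41.2% were called, beside 45.3% of all genes tested at that level; the part of depth was not tested.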

Other observations

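In a few cases 1 library stood apart from the other two of its group by over 5-fold. Gm7125 was at 0.326 CPM in shNT replicate 1, against 4.86 and 5.17 CPM in its fellow libraries. Gm37233, which contains Mir5103, had no count in shNT replicate 3, against 3.10 and 3.26 CPM. Gm26532 was at 0.224 CPM in shARF replicate 3, against 1.28 and 1.34 CPM. None of the 3 passed the test (adjusted p = 0.817, 0.752 and 0.0839, edgeR). Among listed genes that are not members, Dnm3os was at 43.2 CPM in shNT replicate 2, against 150 and 141 CPM in replicates 1 and 3, and Dleu2 was at 4.85 CPM there, against 11.5 and 12.1 CPM.

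Among members with copies elsewhere that are not named above, Gm49207 rose (log2 fold change 0.67, adjusted p = 0.000418) beside its match Ahsa1 (0.54, adjusted p = 8.43e-06, edgeR). Gm4316 rose (0.76, adjusted p = 0.00816) beside Gm42427 (0.40, adjusted p = 0.0121, edgeR). Gm13166 rose from 1.06 to 2.32 CPM (1.12, adjusted p = 0.000467, edgeR), and its match Gm13236 was not tested. The other 3 were not called: Gm49797 (-0.12, adjusted p = 0.481) beside Cd2ap, which rose (0.38, adjusted p = 8.88e-05), Gm26526 (-0.31, adjusted p = 0.2) beside Ube2h, which fell (-0.30, adjusted p = 0.000154), and Gm6712 (0.22, adjusted p = 0.525) beside Gm5165 (0.11, adjusted p = 0.395, edgeR). Gm6712 also matched Zfp97 and Zfp960, which fell (-0.72 and -0.46). The source of these reads within each pair was not tested.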
